A study of Mus musculus with 24 samples.

Results

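The genes described here are 8 mouse genes that hepatocytes around the central vein are known to express under Wnt signalling: Axin2, Lgr5, Tbx3, Glul, Rhbg, Oat, Slc1a2 and Lect2. They were taken as a named set, and every bead-array probe annotated to one of them was followed in each animal, in liver and, for contrast, in epididymal white adipose tissue (EWAT). The set holds 16 of the 45281 probes and 8 of the 19057 genes with a probe of their own. After a filter on signal, 7 of the 8 genes were among the 8939 tested in liver and 4 among the 10978 tested in EWAT. The study gave male C57BL/6J mice an intraperitoneal dose of gapmer antisense oligonucleotide, a short DNA strand with modified ends that directs cleavage of its target RNA. SOX6-treated mice received a gapmer against the transcription factor SOX6, control mice received a control gapmer, and both groups ate the same standard rodent diet and were sampled after 48 hours. Each tissue and treatment had 4 animals, numbered S1 to S4 (SOX6) and C1 to C4 (control). Age and oligonucleotide dose are not given in the sources used here, and all groups carried an oligonucleotide, so no untreated tissue was measured. Within a tissue the samples are read here as separate animals. The same labels occur in both tissues, but it is not stated that a label marks the same animal in both, so the fits across tissues treat the samples as independent. The p-values measure only the spread between them.

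Endothelial cells of the central vein secrete Wnt ligands and R-spondin 3, which stabilise beta-catenin in the neighbouring hepatocytes, where it acts with TCF/LEF factors on DNA. Those hepatocytes make glutamine from ammonium that escaped urea synthesis upstream, and they carry transporters and enzymes that feed this step. Axin2 and Lgr5 belong to the pathway itself, Tbx3 is a transcription factor, Glul, Rhbg, Oat and Slc1a2 handle glutamate and ammonium, and Lect2 encodes a secreted protein.

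In mouse genome build GRCm38.p6, RefSeq places Axin2 at chr11:108917828-108950783, Lgr5 at chr10:115450314-115587780 and Tbx3 at chr5:119670534-119684724. Glul lies at chr1:153899929-153909723, Rhbg at chr3:88242874-88254739 and Oat at chr7:132557475-132576398. Slc1a2 lies at chr2:102658239-102790784 and Lect2 at chr13:56529734-56548559. Promoter sequence, from 250 bases before to 50 after a gene's start, was given in RefSeq's table of this build for 5 of the 8 genes: Glul, Oat, Slc1a2, Lect2 and Axin2. It was searched on both strands for CTTTGAT (reverse complement ATCAAAG), a form of the core bound by TCF/LEF factors. Beta-catenin is known to reach its targets through these factors. The Slc1a2 and Lect2 promoters are printed because each held 1 match, and that of Axin2, a classical beta-catenin target, because it held none in this window. Each is written 5′ to 3′ along the gene's own strand, with the match in capitals. The windows are chr2:102706188-102706487 (plus strand) for Slc1a2, chr13:56548489-56548788 (minus strand) for Lect2 and chr11:108920099-108920398 (plus strand) for Axin2. For Slc1a2, Lect2 and Axin2 the start used lies inside the annotated gene, downstream of its first base.
Slc1a2: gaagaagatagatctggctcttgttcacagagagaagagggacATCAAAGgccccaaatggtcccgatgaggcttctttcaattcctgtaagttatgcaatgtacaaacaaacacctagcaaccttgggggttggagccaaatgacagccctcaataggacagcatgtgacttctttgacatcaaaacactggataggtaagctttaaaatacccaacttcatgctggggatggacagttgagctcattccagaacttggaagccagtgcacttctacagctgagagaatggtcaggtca
Lect2: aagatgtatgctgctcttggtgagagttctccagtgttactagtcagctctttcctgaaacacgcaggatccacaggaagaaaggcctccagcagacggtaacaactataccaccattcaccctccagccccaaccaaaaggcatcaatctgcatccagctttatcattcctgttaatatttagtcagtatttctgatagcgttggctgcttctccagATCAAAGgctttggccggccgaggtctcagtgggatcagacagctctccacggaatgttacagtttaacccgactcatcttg
Axin2: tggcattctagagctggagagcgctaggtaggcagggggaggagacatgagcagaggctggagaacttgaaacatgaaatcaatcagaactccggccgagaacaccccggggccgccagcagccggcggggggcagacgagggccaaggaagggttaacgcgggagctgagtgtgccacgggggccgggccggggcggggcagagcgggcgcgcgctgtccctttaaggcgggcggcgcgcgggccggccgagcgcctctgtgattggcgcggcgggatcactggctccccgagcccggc
The match in Slc1a2 began 207 bases before the start, and that in Lect2 32 bases before it. Both read CTTTGAT on the strand opposite to the gene. Of 32851 mouse promoters of the same length, 1225 (3.73%) held this string. The string ACAATG, a form of the SOX core, was in 0 of the 5 windows and in 12.6% of all 32851. Other forms of either core were not searched, so the windows may hold them. A match describes letters only, and its absence says nothing about binding elsewhere.

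The 24 arrays lay on 4 chips of 6, and each chip held both treatments in both tissues. Liver had 6 SOX6 and 8 control arrays and EWAT 5 and 5, because some animals were hybridised more than once, and repeat arrays were averaged. Between 32.9% and 36.4% of probes were detected per liver array and between 41.5% and 45.9% per EWAT array, where detected means a deposited detection p-value under 0.05. The labelled tissues carried their own markers. The median level of 9 hepatocyte genes was 13.91 to 14.03 in SOX6 livers and 13.94 to 14.12 in control livers, against 4.37 to 4.63 in SOX6 EWAT and 4.38 to 4.59 in control EWAT. The median of 8 adipocyte genes was 10.43 to 11.44 in SOX6 EWAT and 11.13 to 11.79 in control EWAT. All levels are normalised log2 signals with an offset of 16, which understates the differences of dim probes. In EWAT, samples S2 and S4 stood apart by genes of the epididymal duct and samples S3 and C3 by genes of ciliated and transporting epithelium (values are given with the EWAT results).

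Of 5 probes for Sox6, the target of the gapmer, 1 was detected. It read 5.54, 5.12, 5.74 and 4.94 in SOX6 EWAT (S1 to S4), against 6.14, 6.19, 5.45 and 5.85 in control EWAT (C1 to C4). Sox6 averaged 5.34 ± 0.37 in SOX6 EWAT and 5.91 ± 0.34 in control EWAT (SD, n = 4 each), a log2 difference of -0.57 (95% interval -1.10 to -0.05, limma adjusted p = 0.841). Sample C3 lay inside the range of the SOX6 animals, so the groups overlapped (two-sided exact permutation p = 0.0857, where 4 against 4 allows no less than 0.0286). The lowest samples, S4 and S2, are those with genes of the epididymal duct, while S1 and S3 lay within the range of the controls. The part of duct RNA in the Sox6 values was not tested. In liver Sox6 read 4.71, 4.81, 4.90 and 4.90 in SOX6 mice and 4.83, 5.24, 4.82 and 5.02 in control mice. That is a log2 difference of -0.15 (95% interval -0.43 to 0.13, limma adjusted p = 0.736), with the probe detected on 2 of 6 SOX6 and 7 of 8 control arrays. The probe passed the threshold in neither tissue, and where it lies relative to the gapmer site is not given in the sources used here.

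No pericentral gene passed the test in liver. Of the 7 genes tested, 0 were called by limma at an adjusted p under 0.05, where 0.235% of all genes were called (21 of 8939). The unadjusted p was under 0.05 for 0 of the 7, against 884 genes or 9.89% of all tested, and the smallest exact permutation p among them was 0.600. The SOX6 and control animals overlapped for all 7, and 5.83% of all genes tested showed no overlap. The differences were negative for 4 genes and positive for 3, with a median of -0.06, beside a median of 0.004 over all genes. These are whole-tissue samples, in which fewer cells of a type and less RNA per cell cannot be told apart.

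**Figure D1:**
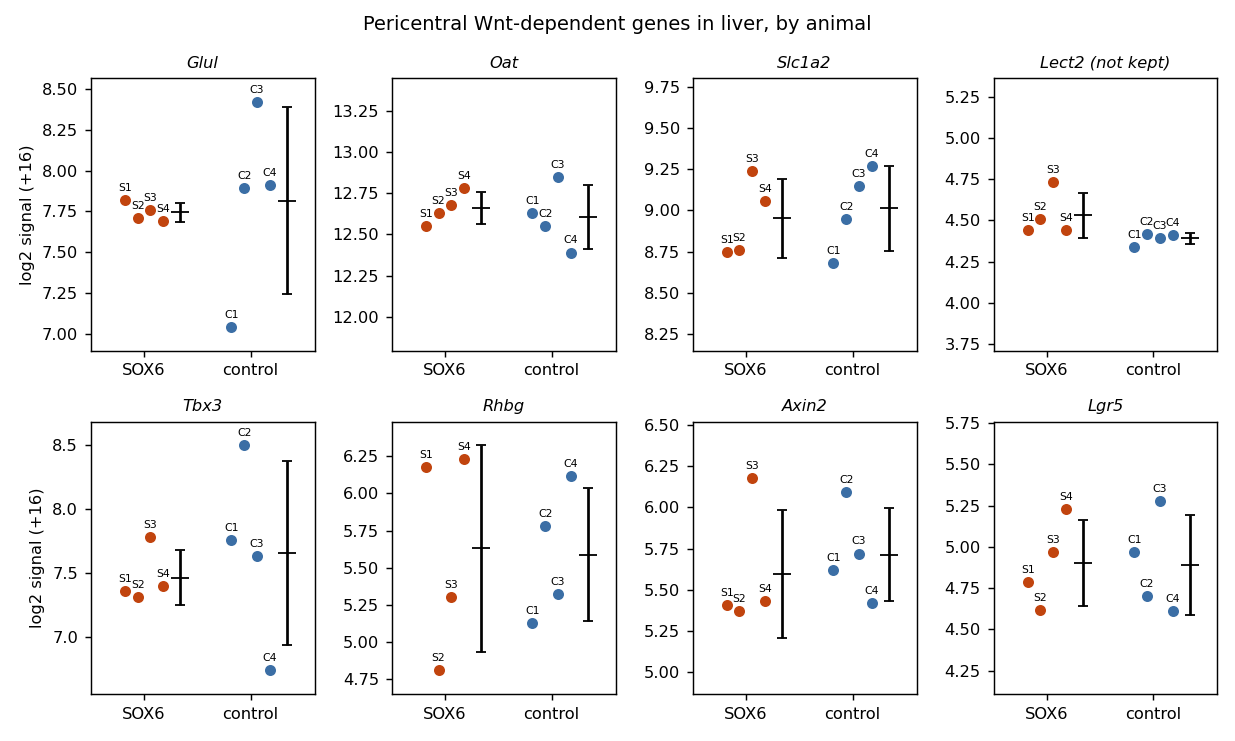
Level of each pericentral gene in the liver of each animal (normalised log2 signal with an offset of 16, 1 point per animal, SOX6 left and control right, bars mean ± SD, n = 4). The groups overlapped for the 7 tested genes, and the Lect2 probe, which was detected on no array, is shown as not kept.

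Axin2 encodes a scaffold of the complex that degrades beta-catenin and is itself switched on by beta-catenin, a negative feedback. Its liver signal was 5.41, 5.37, 6.18 and 5.43 in SOX6 mice, against 5.62, 6.09, 5.72 and 5.42 in control mice. One animal of each group, S3 and C2, was above 6, and S1, S2, S4 and C4 were the lowest, all close together. Axin2 averaged 5.60 ± 0.39 in SOX6 liver and 5.71 ± 0.28 in control liver (SD, n = 4 each), a log2 difference of -0.11 (SE 0.20, 95% interval -0.56 to 0.33, limma adjusted p = 0.898). Without S3 the difference was -0.31 (limma adjusted p = 0.694), and without C2 it was 0.01.

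Lgr5, a receptor for R-spondins that amplifies Wnt signalling, had 2 probes, of which 1 was detected on none of the 14 liver arrays. The other was dim, detected on 4 of 6 SOX6 and 4 of 8 control arrays. It read 4.79, 4.62, 4.97 and 5.23 in SOX6 livers and 4.97, 4.70, 5.28 and 4.61 in control livers. The groups covered nearly the same range, with S4 and C3 the highest of their groups. The log2 difference was 0.01 (SE 0.18, 95% interval -0.38 to 0.40, limma adjusted p = 0.99).

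Tbx3 encodes a T-box repressor of transcription that is known as a beta-catenin target in liver. The brighter of its 2 kept probes read 7.36, 7.31, 7.78 and 7.40 in SOX6 livers, against 7.76, 8.50, 7.63 and 6.74 in control livers. Control animals spanned the wider range, and both the highest sample (C2) and the lowest (C4) were controls. Tbx3 averaged 7.46 ± 0.21 in SOX6 liver and 7.66 ± 0.72 in control liver (SD, n = 4 each), a log2 difference of -0.19 (SE 0.29, 95% interval -0.83 to 0.45, limma adjusted p = 0.875). It was 0.09 without C2 and -0.50 without C4 (limma adjusted p = 0.398), the lowest adjusted p of any pericentral gene in any of the treatment fits. The second kept probe read 6.32, 6.13, 7.01 and 6.32 in SOX6 livers and 6.33, 7.46, 6.69 and 5.73 in control livers, a log2 difference of -0.11. It ordered the animals much as the first did (Pearson r = 0.94 over the 8 livers, as a description). The remaining 2 Tbx3 probes were detected on 3 and 5 of the 14 liver arrays and were not kept.

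Glul encodes glutamine synthetase, the enzyme that joins ammonium to glutamate, and its protein is confined to a narrow ring of hepatocytes at the central vein. Its probe read 7.82, 7.71, 7.76 and 7.69 in SOX6 livers, against 7.04, 7.89, 8.42 and 7.91 in control livers. The SOX6 animals lay close together and inside the range of the controls, which was set by C1 at the low end and C3 at the high end. Glul averaged 7.75 ± 0.06 in SOX6 liver and 7.81 ± 0.57 in control liver (SD, n = 4 each), a log2 difference of -0.07 (SE 0.23, 95% interval -0.57 to 0.43, limma adjusted p = 0.96). Leaving out C1 gave -0.32 (limma adjusted p = 0.485) and leaving out C3 gave 0.13 (limma adjusted p = 0.882). The liver of C1 also held the highest median of 8 endothelial genes, 7.52 against 6.33 to 7.06 in the other 7 livers, and of 7 Kupffer cell and macrophage genes, 7.82 against 6.57 to 7.18. The summed level of the endothelial list ran from 11.09 to 11.40 in SOX6 livers and 11.03 to 11.54 in control livers, and that of the Kupffer list from 9.52 to 10 in SOX6 livers and 9.23 to 10.72 in control livers. Of these lists, 7 of 8 and 6 of 7 genes were detected in the livers, and their part in the Glul level was not tested.

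Rhbg encodes an ammonium transporter of the plasma membrane. Its probe read 6.18, 4.81, 5.30 and 6.23 in SOX6 livers, against 5.13, 5.78, 5.32 and 6.12 in control livers. High and low animals occurred in both groups, with S1, S4 and C4 above 6 and S2 lowest of the 8. The log2 difference was 0.04 (SE 0.32, 95% interval -0.67 to 0.75, limma adjusted p = 0.981), the least precise of the 7. Rhbg was detected on 5 of 6 SOX6 and 8 of 8 control arrays.

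Oat encodes ornithine aminotransferase, a mitochondrial enzyme that turns ornithine into a precursor of glutamate. It read 12.55, 12.63, 12.68 and 12.78 in SOX6 livers, against 12.63, 12.55, 12.85 and 12.39 in control livers. All 4 SOX6 animals fell between the lowest and the highest control. Oat averaged 12.66 ± 0.10 in SOX6 liver and 12.61 ± 0.19 in control liver (SD, n = 4 each). Its difference was the most precise of the set, 0.05 (SE 0.10, 95% interval -0.16 to 0.26, limma adjusted p = 0.896), which as a fold covers 0.897 to 1.2.

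Slc1a2 encodes a glutamate transporter best known from astrocytes and present in hepatocytes near the central vein. Its brightest probe read 8.75, 8.76, 9.24 and 9.06 in SOX6 livers, against 8.68, 8.95, 9.15 and 9.27 in control livers. S1, S2 and C1 were low and S3 and C4 high, and the groups overlapped. The log2 difference was -0.06 (SE 0.15, 95% interval -0.39 to 0.27, limma adjusted p = 0.935). Of the other probes, 2 were kept, with log2 differences of 0.23 (7.29 ± 0.22 in SOX6 liver and 7.06 ± 0.30 in control liver, SD, n = 4 each, exact permutation p = 0.286) and 0.07. The sign thus differed between probes of this gene, although the 3 probes ordered the animals alike (Pearson r 0.74 to 0.87 over the 8 livers). For the last 2 Slc1a2 probes the count of liver arrays with a detected signal was 0 of 14.

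Lect2 encodes a chemotactic protein secreted by hepatocytes and known as a beta-catenin target. Its single probe was detected on 0 of 14 liver arrays and 0 of 10 EWAT arrays, so it was not well above background in either tissue and no level of Lect2 was measured. Lect2 is known as an abundant transcript of liver, so the reading of this single probe is not taken as low expression, and whether the probe works was not tested. The values were 4.44, 4.51, 4.73 and 4.44 in SOX6 livers and 4.34, 4.42, 4.39 and 4.41 in control livers. They did not overlap, but they lay at background in both groups. Of the genes that passed the filter in liver, which leaves out Lect2, 5.83% did not overlap. In a fit of all 19057 genes without the signal filter the difference was 0.14 (SE 0.07, limma adjusted p = 0.764).

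**Figure D2:**
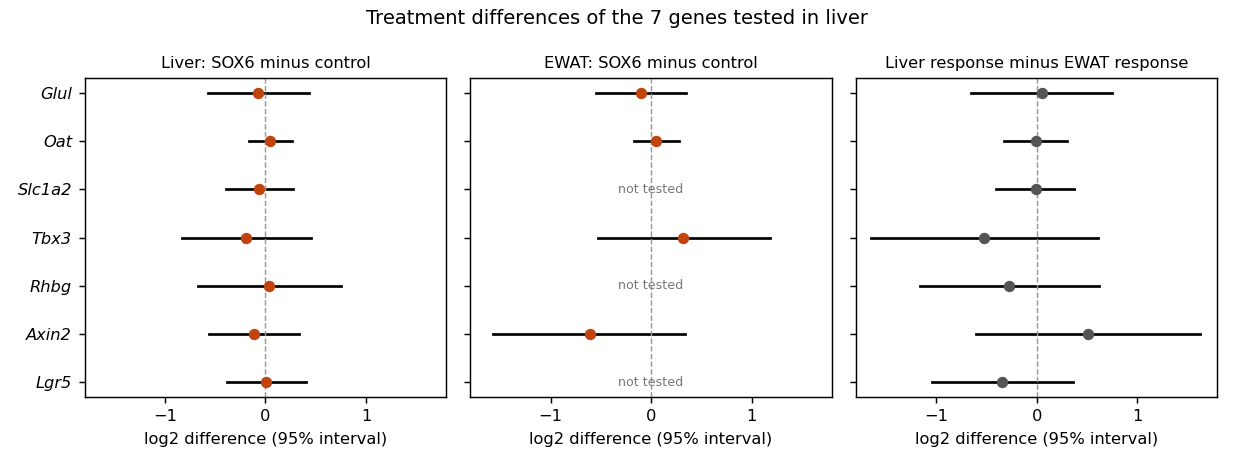
Log2 differences with 95% intervals for the 7 genes tested in liver: SOX6 minus control in liver (left), SOX6 minus control in EWAT (middle) and the liver difference minus the EWAT difference (right). All intervals drawn include 0 (the middle panel holds the 4 genes tested in EWAT and leaves out the unfiltered values of the others), and the widest liver interval is that of Rhbg (-0.67 to 0.75), the narrowest that of Oat (-0.16 to 0.26).

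Within single chips the liver differences took both signs for all 7 genes. For Glul they were 0.20, -0.08, -1.18 and 0.13 on chips 1 to 4, and for Oat 0.21, 0.07, -0.18 and -0.05. Tbx3 gave 0.71, -0.71, -0.14 and -0.82, and Axin2 gave 0.69, -0.53, -0.22 and -0.44 on the same chips. Each chip held the liver of 1 SOX6 animal only: S3 on chip 1, S4 on chip 2, S2 on chip 3 and S1 on chip 4. The controls also differed from chip to chip, so these values describe single SOX6 animals. Tbx3 and Axin2 were higher in S3 than the mean of the control arrays on its chip. In S4, S2 and S1 both were lower. Slc1a2 gave 0.19, 0.02, -0.48 and -0.06, Rhbg -0.54, 0.71, -0.58 and 0.78, and Lgr5 0.24, 0.14, -0.54 and -0.01. Chip 3, where single arrays of S2 and C3 met, gave the lowest Glul, Slc1a2, Oat, Rhbg and Lgr5 differences.

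Repeat arrays of 6 livers gave the difference of each gene between arrays of the same animal, and over all probes they correlated at 0.992 to 0.995. Glul differed between repeats by 0.38 at the median and by up to 0.95, where 1423 genes of similar level differed by 0.12 at the median. That was a larger difference than for 99.7% of them. The 2 arrays of C3 read 7.94 on chip 2 and 8.89 on chip 3 for Glul, and those of C2 read 7.61 on chip 2 and 8.18 on chip 4. Repeats on the same chip also differed: those of S1, both on chip 4, read 8.03 and 7.62, and those of C4, both on chip 1, read 7.97 and 7.84, while those of S4, both on chip 2, read 7.68 and 7.70. C1 was low on both of its arrays, at 6.87 and 7.21. In EWAT the 2 repeated animals differed by 0.30 for Glul at the median, more than 97.1% of 1569 genes of similar level. The median repeat difference in liver was 0.04 for Oat, 0.09 for Slc1a2, 0.17 for Tbx3, 0.18 for Rhbg, 0.20 for Lgr5 and 0.25 for Axin2.

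**Figure D3:**
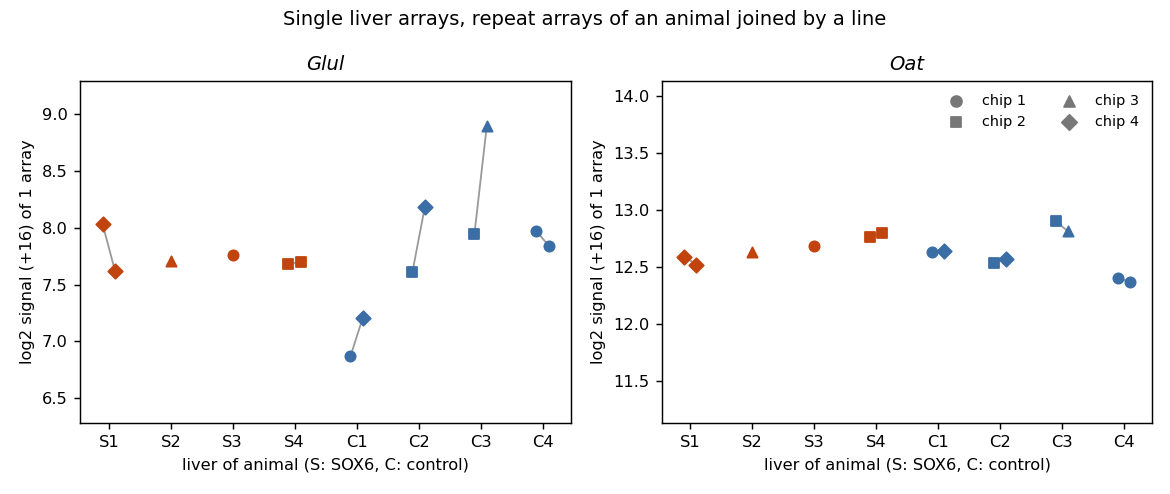
Glul (left) and Oat (right) on every single liver array (normalised log2 signal with an offset of 16), by animal, with arrays of the same animal joined by a line and the chip given by the symbol. The 2 Glul arrays of C3 lie 0.95 apart, while no pair of Oat arrays differed by more than 0.08.

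Animals of the same treatment differed more in some of these genes than in most others. The SD between livers within treatments was 0.58 for Rhbg and 0.53 for Tbx3, larger than for 98.7% and 98.3% of the genes tested in liver. It was 0.41 for Glul (95.8%), 0.34 for Axin2 (92%) and 0.15 for Oat (38.3%). Against genes of similar level, which is the closer comparison for a bright probe, the SD of Oat was larger than for 71.2%, that of Glul than for 95.2%, that of Tbx3 than for 97.5% and that of Rhbg than for 99%. The median difference between repeat arrays, which is not an SD, was smaller for Rhbg and Tbx3 (0.18 and 0.17) and similar for Glul (0.38).

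The genes of the set did not vary as one group across livers. Tbx3 and Axin2 went together (Pearson r = 0.77, Spearman rho = 0.88 over 8 livers, and r = 0.76 after removing the treatment means), with C2 the highest control and S3 the highest SOX6 liver for both. In EWAT the same pair gave r = -0.56 and rho = -0.31 over 8 animals. Oat and Lgr5 gave r = 0.88 and rho = 0.93 in liver, although Lgr5 was detected on only 8 of the 14 liver arrays, and Glul and Slc1a2 gave r = 0.57. The other pairs lay between -0.31 and 0.34. All these values share arrays, chips and normalisation, and they are given as descriptions. The gene most like each in its pattern over the 8 livers, among all genes tested, was Gramd1b for Axin2 (r = 0.973), Olfr550 for Lgr5 (r = 0.956), Apmap for Tbx3 (r = 0.911) and Xpo7 for Glul (r = 0.98). For Rhbg it was Tbc1d10c (r = 0.987), for Oat Zfx (r = 0.899) and for Slc1a2 Fam91a1 (r = 0.956). None of these 7 is another gene of the set, although Lgr5 came next after Zfx for Oat (r = 0.885). Each value is the highest among all genes tested, and so is high by selection.

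EWAT is fat tissue without hepatocytes, and 4 of the 8 genes were tested there. None was called by limma at an adjusted p under 0.05, where 0% of all genes were called (0 of 10978, with 549 or 5% at an unadjusted p under 0.05). At an unadjusted p under 0.05 the count for the 4 genes was also 0, and the smallest exact permutation p among them was 0.314. All 4 overlapped between treatments, beside 2.8% of all genes that did not.

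**Figure D4:**
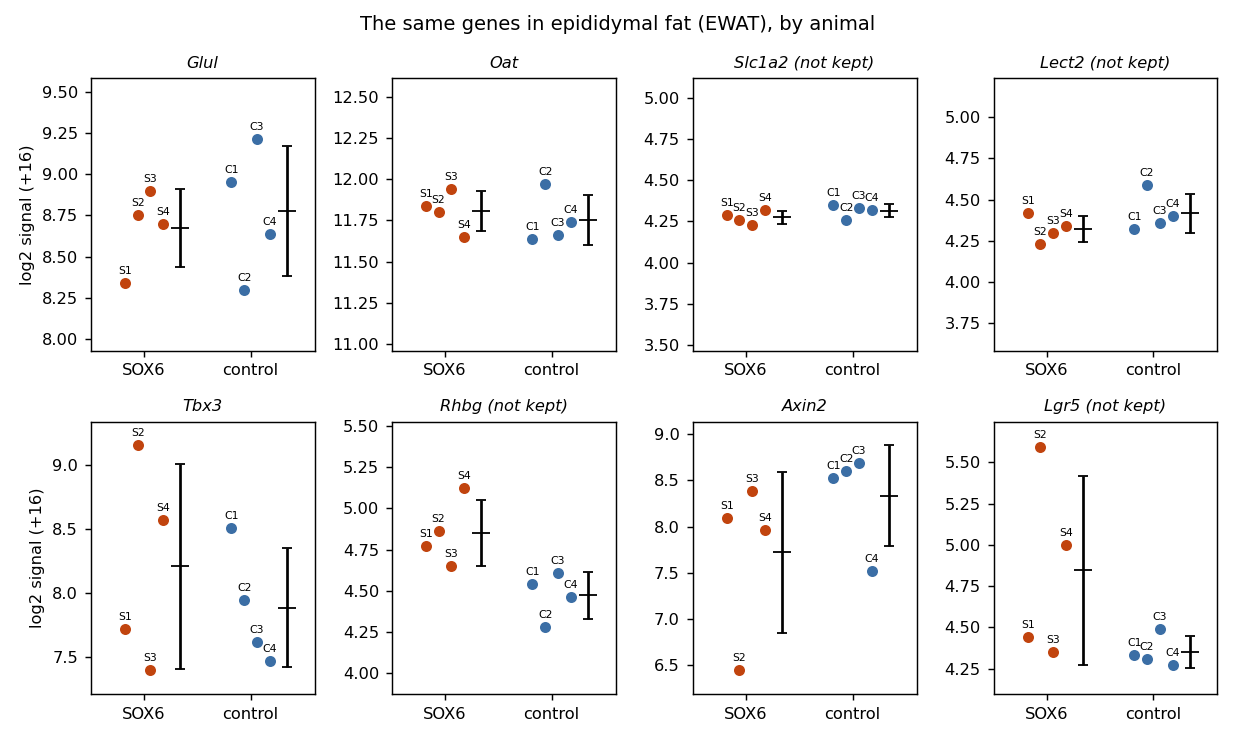
Level of each pericentral gene in the EWAT of each animal (normalised log2 signal with an offset of 16, 1 point per animal, SOX6 left and control right, bars mean ± SD, n = 4). Slc1a2, Lect2, Rhbg and Lgr5 did not pass the signal filter in EWAT, and S2 and S4 are the highest animals for Tbx3, Rhbg and Lgr5.

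Axin2 had the largest difference of the 4 in EWAT. It read 8.09, 6.44, 8.39 and 7.96 in SOX6 EWAT, against 8.53, 8.60, 8.69 and 7.52 in control EWAT. S2 lay far below all other animals, 3 controls lay above every SOX6 animal, and the control C4 lay below 3 of the SOX6 animals. Axin2 averaged 7.72 ± 0.87 in SOX6 EWAT and 8.34 ± 0.55 in control EWAT (SD, n = 4 each), a log2 difference of -0.61 (SE 0.42, 95% interval -1.57 to 0.34, limma adjusted p = 0.858). Without S2 the difference was -0.19. Within chips 1 to 4 it was 0.66, -0.21, -1.31 and -0.72.

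Tbx3 in EWAT read 7.72, 9.15, 7.40 and 8.57 in SOX6 mice, against 8.51, 7.95, 7.62 and 7.47 in control mice. S2 and S4 were the 2 highest of all 8 and S3 the lowest. The log2 difference was 0.32 (SE 0.38, 95% interval -0.53 to 1.18, limma adjusted p = 0.916). The other 3 probes, all kept in EWAT, gave -0.17, -0.16 and 0.32. Without S2 the difference of the brightest probe was 0.01.

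Samples S2 and S4 are those that carried RNA of the epididymal duct. Spink8 read 14.20 in S2 and 13.82 in S4, against at most 4.98 in the other 6 EWAT samples, and Defb42 read 13.00 and 12.68, against at most 5.64. The summed level of the 5 epididymal duct genes ran from 6.99 to 14.75 in SOX6 EWAT and from 6.88 to 7.02 in control EWAT, with 4 and 2 of the 5 detected. With S2 and S4 left out, the difference of Tbx3 was -0.33 and that of Axin2 -0.09, a choice made after seeing the data. S3 and C3 carried Cdh16 at 10.53 and 10.33 and Cldn2 at 9.97 and 10.04, genes of transporting epithelium. With S3 and C3 left out, Tbx3 gave 0.50 and Axin2 -0.72. Of the 8 adipocyte genes all had negative differences in EWAT, with a median of -0.30 and 0 called, beside a median of -0.02 over all genes. The part of the adipocyte share in the EWAT values was not tested.

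Glul in EWAT read 8.34, 8.75, 8.90 and 8.70 in SOX6 mice, against 8.95, 8.30, 9.21 and 8.64 in control mice. The SOX6 animals lay within the range of the controls. The log2 difference was -0.10 (SE 0.20, 95% interval -0.55 to 0.35, limma adjusted p = 0.959). Oat read 11.84, 11.80, 11.94 and 11.65 in SOX6 EWAT and 11.64, 11.97, 11.66 and 11.74 in control EWAT. Its difference was 0.05 (SE 0.10, 95% interval -0.17 to 0.28, limma adjusted p = 0.951), close to the value in liver and as precise.

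Slc1a2, Lect2, Rhbg and Lgr5 did not pass the signal filter in EWAT. All 5 Slc1a2 probes were detected on 0 of 10 arrays. Rhbg read 4.77, 4.86, 4.65 and 5.12 in SOX6 EWAT, against 4.54, 4.28, 4.61 and 4.46 in control EWAT, and was detected on 3 of 5 SOX6 and 0 of 5 control arrays. These values did not overlap but lay near background. S4 and S2, which carried epididymal duct genes, were the highest, and S1 and S3 also lay above every control. The part of duct RNA in the Rhbg values was not tested. Of the genes that passed the filter in EWAT, 2.8% did not overlap and 5% had an unadjusted p under 0.05 by limma. Rhbg is not among those genes. In the limma fit of all 19057 genes without the signal filter the Rhbg difference was 0.38 (SE 0.12, 95% interval 0.11 to 0.64, unadjusted p = 0.00955, adjusted p = 0.922, exact permutation p = 0.0286, the smallest that 4 against 4 allows). Lgr5 read 4.44, 5.59, 4.35 and 5 in SOX6 EWAT and 4.33, 4.31, 4.49 and 4.27 in control EWAT. It was detected in S2 and S4 alone, the samples with epididymal duct genes, and its difference without the signal filter was 0.50 (SE 0.24, limma adjusted p = 0.922).

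The difference in response between the tissues passed the threshold for 0 of the 7 genes. This interaction, the liver difference minus the EWAT difference, was called by limma for 0 of the 7 beside 0.0174% of all genes (2 of 11471), with unadjusted p-values from 0.317 upward. It was 0.51 for Axin2 (95% interval -0.60 to 1.63) and -0.52 for Tbx3 (95% interval -1.65 to 0.61). These 2 intervals are wide, and each bound exceeds 0.5 in size. Glul gave 0.05 (95% interval -0.65 to 0.75), Oat -0.01 (95% interval -0.32 to 0.30) and Slc1a2 -0.01 (95% interval -0.40 to 0.37). Rhbg gave -0.27 (95% interval -1.16 to 0.62) and Lgr5 -0.34 (95% interval -1.04 to 0.36). For Slc1a2, Rhbg and Lgr5 the EWAT probe did not pass the signal filter, so these 3 values set a liver difference against signals at or near background and say little about a response in EWAT. The limma adjusted p ran from 0.876 to 0.994 over the 7.

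The levels of the set differed between control liver and control EWAT, with both tissues normalised together. In the joint limma fit 5 of 7 genes passed at an adjusted p under 0.05, where 65.8% of all genes did (7552 of 11471, 26.2% higher and 39.6% lower in liver). Slc1a2, Rhbg, Lgr5 and Oat were higher in liver and Axin2 lower. Where EWAT was not well above background, the fold is a lower bound taken against the dimmest probes that were detected. Slc1a2 averaged 9.26 ± 0.23 in control liver and 4.31 ± 0.04 in control EWAT (SD, n = 4 each), at least 23.5-fold higher in liver (limma adjusted p = 2.32e-15). Its other detected probes gave at least 16.5-fold and at least 6.71-fold. Rhbg averaged 6.01 ± 0.48 in control liver and 4.44 ± 0.11 in control EWAT (SD, n = 4 each), at least 2.46-fold higher in liver (limma adjusted p = 0.000191). Lgr5 averaged 5.15 ± 0.44 in control liver and 4.34 ± 0.08 in control EWAT (SD, n = 4 each), at least 1.36-fold higher in liver (limma adjusted p = 0.0058), although 4 of 8 liver arrays detected it. Oat averaged 12.55 ± 0.19 in control liver and 11.78 ± 0.16 in control EWAT (SD, n = 4 each), a log2 difference of 0.77 or 1.71-fold (limma adjusted p = 4.82e-06).

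Axin2 ran the other way. It averaged 6.15 ± 0.29 in control liver and 7.94 ± 0.58 in control EWAT (SD, n = 4 each), a log2 difference of -1.79 (95% interval -2.58 to -1.01, limma adjusted p = 0.000457), which is 3.47-fold higher in EWAT. The highest control liver read 6.54 and the lowest control EWAT 7.08. Glul averaged 8.16 ± 0.53 in control liver and 8.41 ± 0.43 in control EWAT, and Tbx3 averaged 8.01 ± 0.67 in control liver and 7.47 ± 0.48 in control EWAT (SD, n = 4 each). For neither did the difference pass, at -0.25 (95% interval -0.75 to 0.24, limma adjusted p = 0.357) for Glul and 0.54 (95% interval -0.26 to 1.34, limma adjusted p = 0.22) for Tbx3. Joint normalisation gave the arrays of both tissues the same distribution of signals, and the tissue differences rest on it. Normalised within each tissue, Tbx3 averaged 7.66 in control liver and 7.89 in control EWAT, and Glul 7.81 and 8.77. Tbx3 was then not higher in liver, while Axin2 (5.71 and 8.34) and Oat (12.61 and 11.75) kept their direction. Levels normalised apart are not on a common scale. A whole-tissue signal holds no position within the liver lobule, so the pericentral label of the genes could not be checked beyond these tissue levels.

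**Figure D5:**
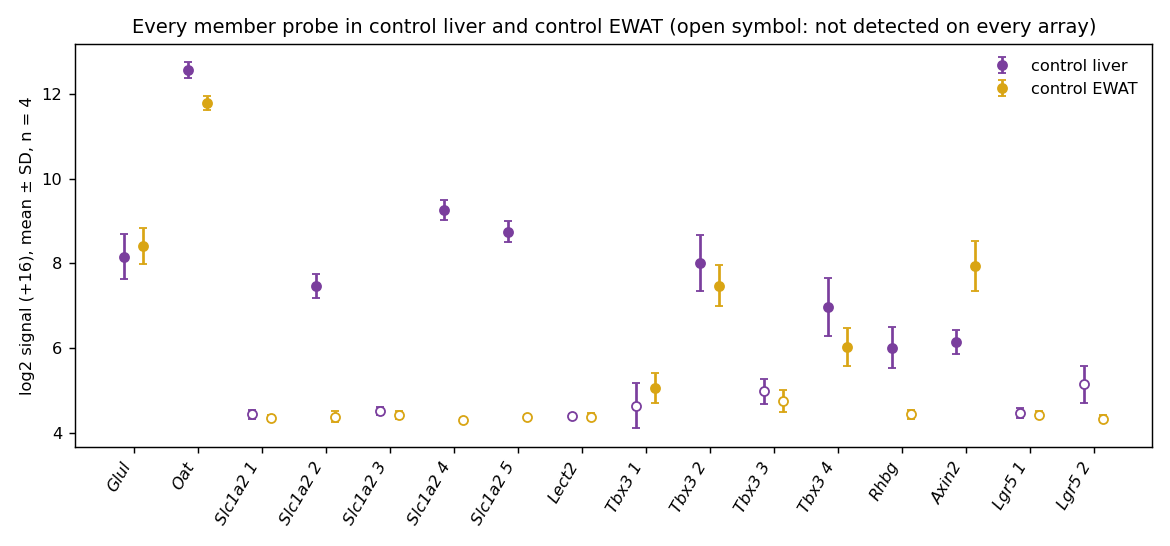
Mean ± SD (n = 4 animals) of each probe of the 8 genes in control liver (left of each pair) and control EWAT (right), as normalised log2 signal with an offset of 16 after joint normalisation, with open symbols for probes not detected on every array of that group. Axin2 is the one gene that passed the test with the higher level in EWAT (6.15 in liver, 7.94 in EWAT), and 3 of the 5 Slc1a2 probes stand far above background in liver.

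The neighbouring lists of pathway and zonation genes also held no call in liver. Of 13 other genes known from pericentral hepatocytes, 10 were tested, with 5 negative and 5 positive differences, a median of 0.00 and 1 unadjusted p under 0.05 (9.89% of all genes tested in liver had one). The smallest p was that of Avpr1a, a vasopressin receptor, at 8.69 ± 0.19 in SOX6 liver and 9.15 ± 0.43 in control liver (SD, n = 4 each, log2 difference -0.46, limma adjusted p = 0.449). Cyp7a1, the rate-limiting enzyme of bile acid synthesis, followed at 11.06 ± 0.23 in SOX6 liver and 11.43 ± 0.46 in control liver (log2 difference -0.37, limma adjusted p = 0.593). Of 14 periportal genes, 11 were tested, 2 negative and 9 positive, with a median of 0.03 and 2 unadjusted p-values under 0.05. Otc, a urea cycle enzyme, averaged 8.28 ± 0.21 in SOX6 liver and 7.82 ± 0.19 in control liver (log2 difference 0.46, limma adjusted p = 0.257). Pck1, the control point of gluconeogenesis, averaged 9.74 ± 0.40 in SOX6 liver and 9.04 ± 0.53 in control liver (log2 difference 0.70, limma adjusted p = 0.376).

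Of 12 Wnt ligand, secretion and R-spondin genes, 5 were tested in liver, 3 negative and 2 positive with a median of -0.21 and 1 unadjusted p under 0.05. Porcn, which acylates Wnt proteins, had a log2 difference of -0.29 (limma adjusted p = 0.401), and Wnt2, a ligand of the liver endothelium, 0.35 (limma adjusted p = 0.568). Of 12 receptor genes 7 were tested, 3 negative and 4 positive with a median of 0.16 and 1 unadjusted p under 0.05, led by Fzd5 at 0.30 (limma adjusted p = 0.435) and Fzd8 at 0.34 (limma adjusted p = 0.611). Of 16 genes of the destruction complex and its transcription factors 11 were tested, 9 negative and 2 positive with a median of -0.03 and 0 unadjusted p-values under 0.05. Tcf7l2, the main TCF/LEF factor of liver, had -0.33 (limma adjusted p = 0.573), and Apc, a scaffold that helps degrade beta-catenin, 0.27 (limma adjusted p = 0.679). Of 10 antagonists 5 were tested, 1 negative and 4 positive with a median of 0.20 and 2 unadjusted p-values under 0.05. They were led by Dkk3 at 0.48 (limma adjusted p = 0.363) and Ctnnbip1, an inhibitor of beta-catenin binding to TCF/LEF factors, at 0.31 (limma adjusted p = 0.416).

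Of 11 other Wnt target genes 8 were tested, 4 negative and 4 positive with a median of 0.00 and 0 unadjusted p-values under 0.05. Notum, a secreted enzyme that inactivates Wnt proteins, had -0.25 (limma adjusted p = 0.536) and Tnfrsf19 -0.38 (limma adjusted p = 0.568). Of 23 genes for handling glutamate, glutamine and ammonium 12 were tested, 3 negative and 9 positive with a median of 0.15 and 3 unadjusted p-values under 0.05. Slc7a2, a transporter of cationic amino acids such as ornithine and arginine, had 0.28 (limma adjusted p = 0.45), and Odc1, the ornithine decarboxylase that shares its substrate with Oat, 0.34 (limma adjusted p = 0.453). In EWAT 0 genes of these 8 lists were called either. The smallest unadjusted p-values there were those of Prodh, which starts proline breakdown, at -0.49 (9.75 ± 0.19 in SOX6 EWAT and 10.24 ± 0.21 in control EWAT, SD, n = 4 each), Wnt5a, a ligand of the beta-catenin-independent branch, at -0.40, Aldh3a2, a fatty aldehyde dehydrogenase of the other pericentral list, at 0.28, and Rspo3, the R-spondin of the central vein, at 1.30. The limma adjusted p was 0.841 for each of these 4. Among the cell type marker lists, 0 genes were called in either tissue. Their median liver differences were 0.00 for 9 hepatocyte genes tested, -0.01 for 3 adipocyte, 0.12 for 7 endothelial, 0.06 for 6 Kupffer cell and macrophage, -0.17 for 2 cholangiocyte and -0.06 for 6 stellate cell and fibroblast genes. The single epididymal duct gene tested in liver gave -0.08 and the 2 genes of ciliated and transporting epithelium -0.12 at the median.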

How the data were processed

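Total RNA of liver and EWAT, with 4 SOX6 and 4 control samples in each tissue, was read on 24 Illumina bead arrays. The authors used GenomeStudio, per the submitters' processing notes, with no version given. The authors deposited intensity values after background subtraction and before any normalization between arrays: 32.1% to 37% of liver and 25.7% to 29.7% of EWAT signals lie below 0. The detection p-value of each probe was deposited beside them. The authors' deposited log2 values, within 0.0144 of quantile normalized log2(signal minus the array's lowest plus 1), served as an alternative. Probes were named from the platform annotation, updated by Entrez ID through RefSeq (34885 probes with 1 gene, 18 with several, 10378 with none, 34807 matched).

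Signals were background-corrected from the detection p-values, quantile normalized and set to log2 with an offset of 16 (neqc of limma 3.58.1, R 4.3.3), within a tissue or, for comparisons of tissues, over all arrays. Repeat arrays of an animal were averaged. Probes with a mean detection p-value under 0.05 in at least 3 of the 8 animals were kept, and the brightest kept probe stood for its gene. Groups were compared with lmFit and trended eBayes, two-sided, with Benjamini-Hochberg adjustment over all genes and a threshold of 0.05, and single genes also with an exact permutation test over animals. The fits of SOX6 against control were tested on simulated data. A log2 change of 0.5 was recovered for 45% of the changed genes in liver and 11% in EWAT. For a log2 change of 1 the shares were 89% and 66%. Many changes of 0.5 would thus be missed, above all in EWAT. The changed genes were drawn at random from all genes tested, 100 for each size of change. These shares are therefore not those of the 8 genes. In liver the median SD within treatments was 0.177 over all genes tested, against 0.58 for Rhbg, 0.53 for Tbx3, 0.41 for Glul and 0.15 for Oat. Recovery at the spread of each gene of the set was not tested. Alternatives changed the normalization, offset, filter, probe choice, variance trend, chip and blocks (statmod 1.5.0) and left out single animals. The number of animals, 4 in each tissue and treatment, limits the precision.

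The 8 genes, 8 pathway lists and 8 cell type marker lists (hepatocytes, adipocytes, endothelial cells, Kupffer cells and macrophages, cholangiocytes, stellate cells and fibroblasts, epididymal duct, ciliated and transporting epithelium) were chosen with earlier results of these data known. Genes named are all 8 with every probe, Sox6, any list gene that passed, the 2 kept genes of each pathway list with the smallest liver p, and the gene most correlated with each. The EWAT genes Prodh, Wnt5a, Aldh3a2, Rspo3, Spink8, Defb42, Cdh16 and Cldn2 were named after their values were seen.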

Additional observations from a re-analysis of the deposited data

Results flagged for a closer look

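Each group of 4 animals was examined for a sample whose gap to its nearest neighbour is large for the range of the group, in 22 groups (7 genes in liver and 4 in EWAT, under both treatments), and 2 stood out. Chance flags about 1 in 20 groups. Both concern Axin2. In SOX6 liver, S3 read 6.18 where the other 3 animals read 5.37 to 5.43, a gap of 0.925 of the group's range. In control EWAT, C4 read 7.52 where the other 3 read 8.53 to 8.69, a gap of 0.87 of the range. Both readings come from 1 array each. Repeat arrays of an animal differed for Axin2 by up to 0.53 in liver, where its signal was dim, and by up to 0.18 in EWAT. The Axin2 difference between SOX6 and control was -0.31 in liver without S3 and -0.89 in EWAT without C4, and it missed the threshold of limma in both.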

How the results depend on the processing

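In 377 recomputed differences of the 7 tested genes (Lect2 did not pass the signal filter and is not among them) between SOX6 and control or between tissue responses, 0 passed the threshold (lowest limma adjusted p 0.398) and 44 changed sign, 36 of these when 1 animal was left out. Leaving out 1 animal gave, in liver, -0.32 to 0.13 for Glul, -0.0194 to 0.14 for Oat, -0.17 to 0.0257 for Slc1a2, -0.50 to 0.0866 for Tbx3, -0.16 to 0.31 for Rhbg, -0.31 to 0.0144 for Axin2 and -0.10 to 0.14 for Lgr5, in EWAT -0.26 to 0.0468 for Glul, and in the interaction -0.19 to 0.24 for Glul, -0.0831 to 0.0751 for Oat, -0.11 to 0.0611 for Slc1a2 and -0.49 to 0.0494 for Rhbg. Other sign changes in liver were Lgr5 at -0.0143 with cyclic loess, Rhbg at -0.0023 with an offset of 1 and Slc1a2 at 0.0797 with the mean of its probes. The Slc1a2 interaction was 0.12 with the authors' values. With EWAT samples left out after seeing the data, Oat was -0.0189 without S3 and C3, and Tbx3 was -0.33 without S2 and S4. Without all 4 of these, which leaves S1 as the only SOX6 sample, assumed to vary like the controls, Tbx3 was -0.26, its interaction was 0.0899, 2 EWAT genes were called and the interaction had 5.

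The 21 genes called in liver became 13 without the intensity trend and 113 with chip as a term on unaveraged arrays, and 12 to 22 with 1 animal left out (12 without S3 and without C2). The 2 interaction calls became 6 with the animal label as a block, 13 with chip as a term and 0 to 3 with 1 animal left out. The cause was not tested. The 5 tissue differences that passed did so in all 21 alternatives. All 21 kept a quantile normalisation over both tissues together and the same signal filter, so they do not test these steps. The numbers 1 to 4 occur in both treatments, and 4 correlations in a tissue are too few to settle whether they pair the animals. For these correlations the mean of the treatment group was first subtracted from each gene, so they compare deviations and not levels. Same-numbered livers correlated at 0.09, -0.04, 0.08 and 0.32, and same-numbered EWAT samples at 0.29, -0.04, 0.66 and 0.25. In each tissue 2 of 4 correlated best with their own number. The value of 0.66 is that of S3 and C3, which both carried genes of transporting epithelium. With the replicate block 43 genes were called in liver, 0 in EWAT, 0 in the interaction (817 at an unadjusted p under 0.05) and 7655 between tissues, and none of the 7 tested genes changed its call.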
